A study of Mus musculus with 9 samples.

Results

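The Obox genes (oocyte-specific homeobox) encode paired-like homeodomain transcription factors related to Crx and Otx, and stand as a tandem cluster with many pseudogene copies on mouse chromosome 7. They were taken as every row of the deposited table whose symbol is Obox followed by a number, which gave 31 of 19359 rows: the genes Obox1, Obox2, Obox3, Obox5, Obox6 and Obox7, and 25 rows named as pseudogenes of Obox3, Obox4 or Obox6. Of these, 15 passed the filter of at least 1 CPM (the reads counted for a gene, set to the same total in every library) in at least 3 of the 9 libraries and were tested among 14876 genes. All 6 genes, 3 Obox3 pseudogene rows and 6 Obox4 pseudogene rows passed; the other 16 rows did not. A row of low CPM that passed only through the group where it was high had to differ between groups, so counts over the tested rows are given as descriptions.

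Each library was made from polyadenylated RNA of 3 pooled embryos at 34 h after fertilization, when mouse embryos are normally at the 2-cell stage. The groups are SPN, a sham pronuclear transfer that served as control, EPN, an early pronuclear transfer, and LPN, a later one, with 3 libraries each, lettered A, B and C; in such a transfer the zygote's pronuclei are placed in a different cytoplast. All groups share hormone-stimulated B6D2F1 females aged 8 to 12 weeks as the stated source of eggs, with no genotype or allele named beyond the strain. The labels also describe selective enucleation of germinal vesicle oocytes to prepare cytoplasts with abnormal parameters, without naming the groups that received them, and give no separate days or matings for the pools, so the p-values speak only of library-to-library spread, which may be technical. The library SPN A stood apart in this family. It had the highest SPN value in 8 of the 9 rows of the Obox genes and tested Obox3 pseudogenes, Obox7 being the exception. SPN A did not stand apart in this family alone, as leaving it out also raised the calls against SPN over all tested genes. The Obox calls are given below with and without SPN A.

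As background, Obox1, Obox2, Obox5 and Obox7 are transcribed in the growing oocyte and their mRNA is stored in the egg. Obox3, in contrast, is transcribed after fertilization, and Obox6 is counted here with Obox3 as zygotic. Of 5 listed zygotic members these 2 alone are in the table, so zygotic sums and ratios cover only Obox3 and Obox6. OBOX proteins bind the regulatory DNA of early embryonic genes, and embryos that lack several of them together are known to fail in genome activation and early cleavage. The oocyte mRNAs are normally degraded while the zygotic ones accumulate. Along chromosome 7 the RefSeq order is Obox7, Obox2, Obox1, Obox3, Obox5, Obox6 and then Crx.

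The start regions of the oocyte members and of Obox3 are printed because the same family splits there into a shared and an unshared part. Each sequence is the 250 bases before the annotated start (RefSeq, GRCm38.p6), 5′ to 3′ on the gene's strand: Obox1 at chr7:15547007-15547256 (+), Obox5 at chr7:15750120-15750369 (+), Obox7 at chr7:14659458-14659707 (+) and Obox3 at chr7:15639778-15640027 (-). Capitals mark the longest stretch shared by all of the Obox windows, which has 25 bases, the TATATAA motif, and in Obox3 the motif GGATTA, the core bound by OTX and CRX type homeodomains.
Obox1: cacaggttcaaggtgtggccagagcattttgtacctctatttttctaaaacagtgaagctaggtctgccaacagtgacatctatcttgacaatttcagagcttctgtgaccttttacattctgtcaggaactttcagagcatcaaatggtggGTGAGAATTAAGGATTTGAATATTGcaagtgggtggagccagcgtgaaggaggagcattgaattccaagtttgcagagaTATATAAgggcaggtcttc
Obox5: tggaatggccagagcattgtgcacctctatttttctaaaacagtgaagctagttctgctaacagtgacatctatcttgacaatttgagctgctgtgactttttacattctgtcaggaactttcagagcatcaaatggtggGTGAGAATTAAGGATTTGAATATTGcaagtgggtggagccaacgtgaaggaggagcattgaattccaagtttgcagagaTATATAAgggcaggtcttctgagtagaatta
Obox7: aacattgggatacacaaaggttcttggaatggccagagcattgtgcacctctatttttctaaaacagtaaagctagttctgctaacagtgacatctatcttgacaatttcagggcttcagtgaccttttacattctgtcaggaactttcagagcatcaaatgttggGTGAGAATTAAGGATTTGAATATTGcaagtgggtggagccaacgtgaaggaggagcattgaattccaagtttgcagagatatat
Obox3: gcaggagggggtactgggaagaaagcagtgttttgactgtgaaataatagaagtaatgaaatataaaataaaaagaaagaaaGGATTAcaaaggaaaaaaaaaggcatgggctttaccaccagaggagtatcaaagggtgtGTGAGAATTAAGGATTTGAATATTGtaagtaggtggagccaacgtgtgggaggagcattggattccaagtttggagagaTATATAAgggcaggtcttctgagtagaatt

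The shared stretch GTGAGAATTAAGGATTTGAATATTG begins 98 bases before the start of Obox1, 110 before that of Obox5, 84 before that of Obox7 and 109 before that of Obox3. Among 32851 RefSeq windows of 250 bases before to 50 after a gene's start, only the 5 Obox windows (those printed and that of Obox2) hold it. From this stretch onward Obox3 was 90.2% to 93.7% identical to the oocyte members, which were 98.0% to 100% identical to each other. These segments had 95 bases, or 51 in pairs with Obox2. They include the 25 shared bases, which match by choice and raise these percentages. In the 100 bases before the stretch the oocyte members remained 90.2% to 100% identical to each other, and Obox3 was 44.7% to 48.2% identical to them. Obox2 has its annotated start farther upstream, so that the stretch begins 1 base before it, and is not printed; Obox6 had no entry.

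The same windows were searched on both strands for 4 motifs. TATATAA was in 4 of the 5 Obox windows, which are near-identical from the shared stretch on, and in 3.24% of all windows. The window without it, that of Obox2, holds only 51 bases from the shared stretch on. It ends before the place where the others have the motif, so its lack there says nothing of Obox2. In Obox7 the match begins 5 bases before the start and runs past it, so it is not in capitals. GGATTA was in the Obox3 window alone among the 5, beginning 168 bases before the start, and in 7.06% of all windows. TAATTA and TAATTG, letters of the site type bound by the oocyte factor NOBOX, were in none of the 5, against 5.29% and 8.00% of all windows. A match is a description of letters, not a binding site. The motifs share no letters with the common stretch where they are in capitals.

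Obox5 was the most abundant of the oocyte-stored members, and its mRNA was lower after later transfer than after the sham. It was measured at 5125, 2836 and 2656 CPM in SPN A, B and C, at 2309, 2285 and 1865 in EPN, and at 2471, 1914 and 1106 in LPN. All 3 LPN and all 3 EPN libraries lay below the lowest SPN library, and SPN A stood far above every other library. The mean fell from 3539 ± 1377 CPM in SPN to 1830.4 ± 686 in LPN (SD, n = 3), a log2 change of -0.96 (SE 0.30, limma, adjusted p = 0.0438), or 1.95-fold lower. For EPN, with a mean of 2153 ± 250.02 CPM, the log2 difference from SPN of -0.66 (SE 0.30) did not pass (limma, adjusted p = 0.427). The Obox5 call did not hold without SPN A, where the log2 difference was -0.66 (limma, adjusted p = 0.0985), and it was kept in 4 of 19 alternatives. In bulk embryos, fewer blastomeres that hold an mRNA and less of it per cell cannot be told apart.

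Obox1, the next oocyte member by level, did not pass in any comparison. It was measured at 512, 357 and 447 CPM in SPN, at 549, 431 and 368 in EPN, and at 542, 257 and 246 in LPN. LPN A lay above every SPN library, while LPN B and C lay below them, so the groups overlapped. The log2 difference of LPN from SPN was -0.42 (SE 0.30, limma, adjusted p = 0.377), and that of EPN from SPN was 0.03 (limma, adjusted p = 0.984).

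Obox2, whose coding sequence was 98.7% identical to that of Obox1 over the shorter of the pair and 73.0% over the longer, also did not pass. Its levels were 131, 115 and 119 CPM in SPN, 186, 301 and 125 in EPN, and 141, 173 and 71.5 in LPN. EPN B was the highest library and LPN C the lowest, and LPN overlapped both other groups. The log2 difference of EPN from SPN was 0.65 (SE 0.34, limma, adjusted p = 0.474), and that of LPN from SPN was -0.01 (SE 0.34, limma, adjusted p = 0.986).

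Obox7, the least abundant of the oocyte members, was measured at 46.1, 33.9 and 77.0 CPM in SPN, at 57.7, 24.0 and 36.6 in EPN, and at 72.3, 54.9 and 18.8 in LPN. The libraries of every group overlapped, and LPN held both one of the highest and the lowest value. Its log2 difference of LPN from SPN was -0.22 (SE 0.43, limma, adjusted p = 0.783). Among the 4 oocyte members, all with negative differences for LPN against SPN on the deposited scale, Obox5 was the only call, and whether it differed from the other members was not tested. With median-of-ratios scaling its log2 difference was -0.77 and did not pass (limma, adjusted p = 0.228), and those of Obox2 (0.17) and, with edgeR on the recovered reads, Obox7 (0.16) turned positive. These differences stand beside a median over all tested genes of -0.17 for LPN against SPN, which median-of-ratios scaling brought to -0.02, and of -0.07 for EPN against SPN.

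Obox3, the zygotic member that lies between Obox1 and Obox5 in the cluster, was higher after later transfer. It was measured at 957, 419 and 208 CPM in SPN, at 613, 906 and 892 in EPN, and at 1269, 1270 and 1093 in LPN. Every LPN library lay above every SPN and EPN library, while SPN A lay above all of the EPN libraries and the remaining SPN libraries below them. The mean rose from 528 ± 386 CPM in SPN to 1211 ± 102 in LPN (SD, n = 3), a log2 change of 1.47 (SE 0.34, limma, adjusted p = 0.01001), or 2.76-fold. EPN, at 804 ± 165 CPM, differed from SPN by 0.86 on the log2 scale (SE 0.34) and did not pass (limma, adjusted p = 0.346).

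Obox6, a homeodomain gene at the Crx end of the cluster, moved in the same direction. Its levels were 1346, 796 and 529 CPM in SPN, 806, 985 and 1304 in EPN, and 2136, 2056 and 1534 in LPN. The lowest LPN library lay above the highest SPN and EPN libraries, and EPN and SPN overlapped. The mean rose from 891 ± 417 CPM in SPN to 1909 ± 327 in LPN (SD, n = 3), a log2 change of 1.19 (SE 0.30, limma, adjusted p = 0.0145), or 2.28-fold. EPN had a mean of 1032 ± 252 CPM and a log2 difference from SPN of 0.29 (limma, adjusted p = 0.755).

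**Figure D1:**
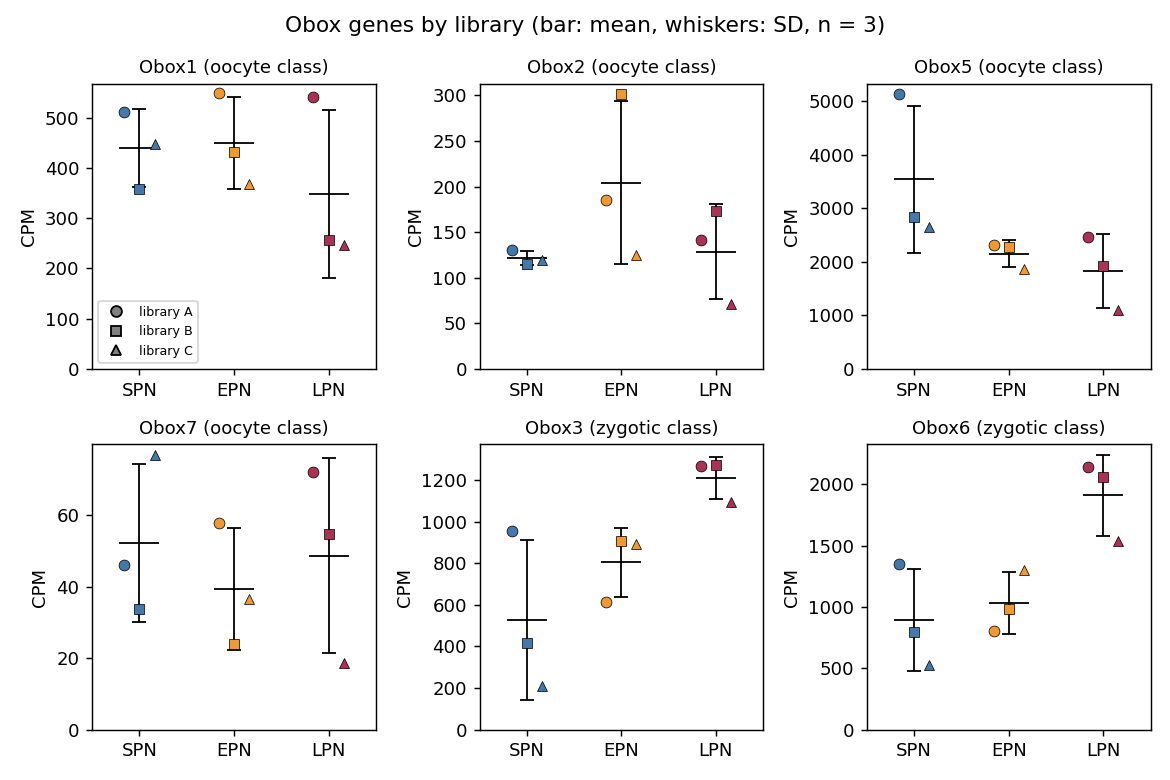
CPM of the 6 Obox genes in each of the 9 libraries, by group, on linear axes from 0, with the mean (bar) and SD (whiskers) of 3 libraries. Obox3 and Obox6 have their 3 LPN libraries above all others (lowest LPN values 1093 and 1534 CPM), Obox5 has its 3 SPN libraries above all others (lowest SPN value 2656 CPM), and the groups of Obox1, Obox2 and Obox7 overlap for LPN against SPN.

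Among the 15 tested Obox rows, 5 passed for LPN against SPN, 4 higher and 1 lower, beside 8.8% of all tested genes called (3.26% higher and 5.54% lower); 6 of 15 had an unadjusted p under 0.05, beside 26.9% of all genes. On the whole reads recovered from the CPM values, edgeR called 0 of them and DESeq2 called 3, Obox3, Obox6 and Obox3-ps7; Obox3 and Obox6 had adjusted p = 0.107 and 0.0751 in edgeR. Without the filter on low values limma called 0. Over all genes the split of calls was 485 higher and 824 lower, and 675 and 541 with median-of-ratios scaling. For EPN against SPN 0 of 15 passed in limma, beside 0.108% of all tested genes; 6 of 15 had an unadjusted p under 0.05, beside 11% of all genes, edgeR called 0 and DESeq2 called 0. For LPN against EPN 0 of 15 passed in limma, beside 1.53% of all tested genes; 2 of 15 had an unadjusted p under 0.05, beside 19.3% of all genes, and edgeR and DESeq2 called 0. Both transfer groups were compared with the same 3 SPN libraries, so the contrasts with SPN are not independent. Groups that did not overlap were found for Obox3, Obox5 and Obox6 in LPN against SPN, 3 of 15 rows beside 27.5% of all tested genes. In LPN against EPN it was Obox3, Obox6, Obox3-ps1 and Obox3-ps4, 4 of 15 beside 26.6%.

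The direct contrast of the transfer groups gave the same direction for the zygotic genes without a call. Obox6 differed by 0.90 on the log2 scale between LPN and EPN (SE 0.30, limma, adjusted p = 0.101), although its libraries did not overlap. Obox3 differed by 0.61 (SE 0.34, limma, adjusted p = 0.331). The oocyte members had log2 differences from -0.66 for Obox2 to 0.19 for Obox7, all with overlapping libraries.

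**Figure D2:**
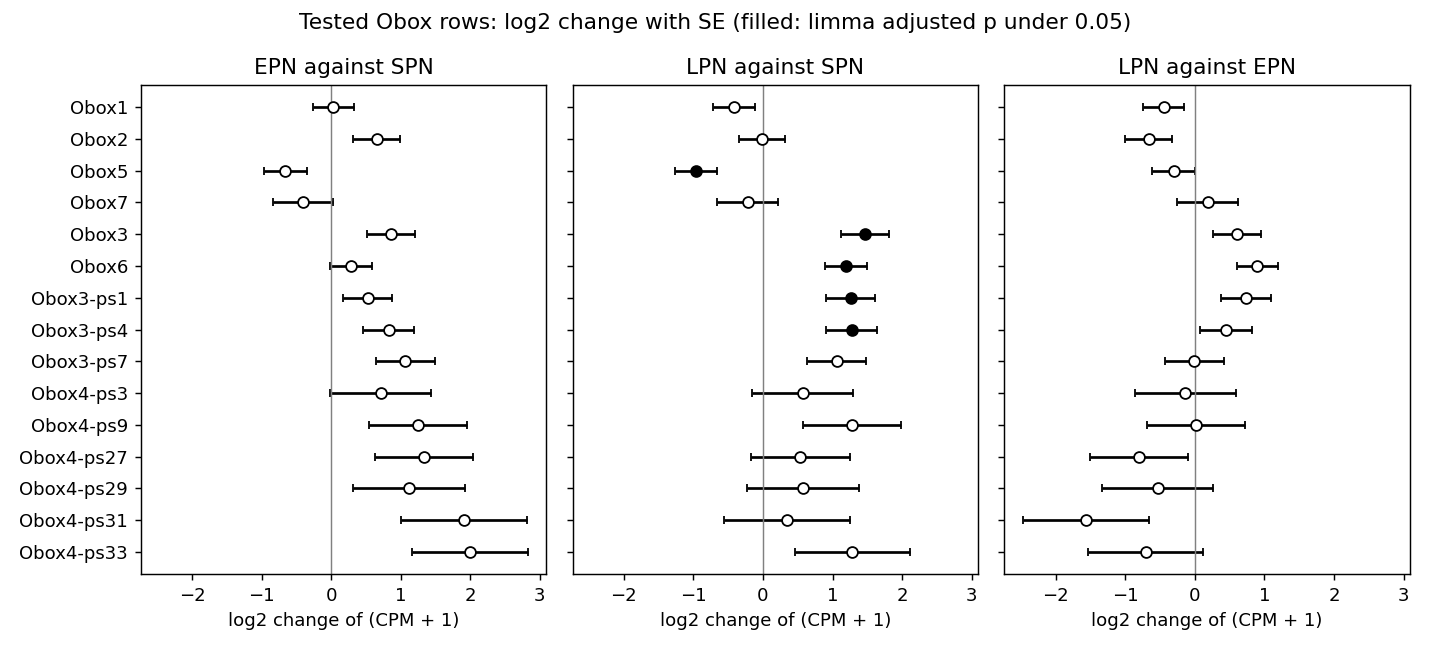
Log2 differences on the log2(CPM + 1) scale with their standard errors for the tested Obox rows in the 3 contrasts, with filled points for limma calls. In LPN against SPN the rows with a call are Obox3 (1.47), Obox3-ps4 (1.28), Obox3-ps1 (1.26), Obox6 (1.19) and Obox5 (-0.96).

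Summed over the oocyte class, a level is less affected by how reads were split between the near-identical Obox1 and Obox2. Obox5, Obox6 and Obox7 shared no exact 150-base window with another Obox transcript, so summing bears mainly on that pair. The oocyte members Obox1, Obox2, Obox5 and Obox7 together had 5814, 3342 and 3300.3 CPM in SPN, 3101, 3041 and 2395 in EPN, and 3226, 2399 and 1442 in LPN. Obox3 and Obox6 together had 2303, 1215 and 737 CPM in SPN, 1419.7, 1891 and 2196 in EPN, and 3406, 3326 and 2627 in LPN. SPN A was the highest library of all for the oocyte sum and the highest SPN library for the zygotic sum.

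The ratio of the zygotic to the oocyte sum was taken within each library, where the library total cancels. It was 0.396, 0.364 and 0.223 in SPN, 0.458, 0.622 and 0.917 in EPN, and 1.06, 1.39 and 1.82 in LPN. The groups did not overlap in any pair, and only in LPN did the zygotic sum exceed the oocyte sum in every library. On the log2 scale the SPN ratios averaged -1.65 ± 0.45, those of EPN -0.65 ± 0.50 and those of LPN 0.47 ± 0.39 (SD, n = 3). These values carry no test, since the classes were chosen with results of these data known.

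**Figure D3:**
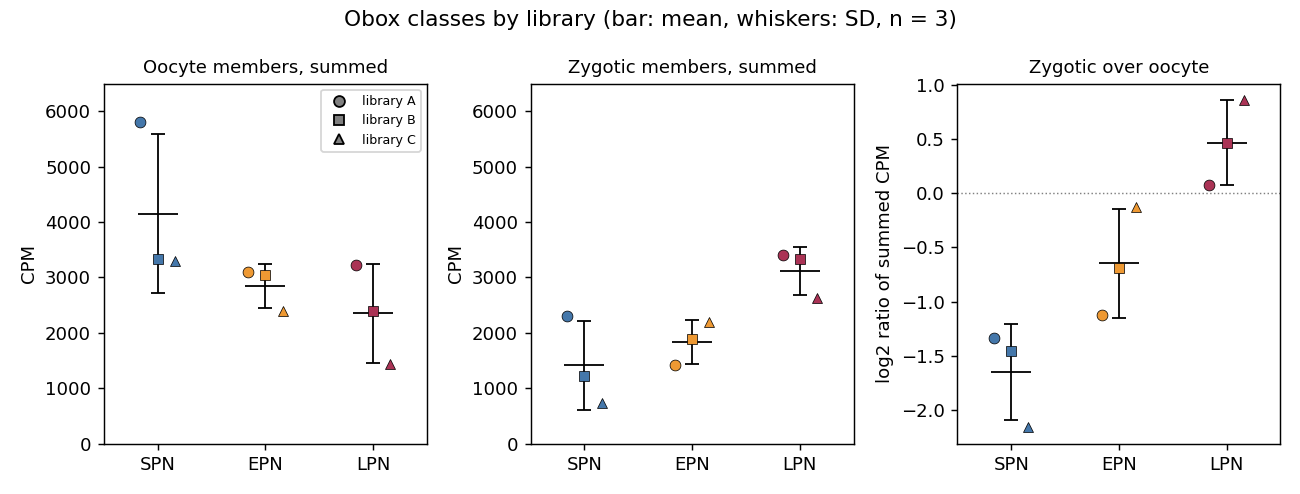
Summed CPM of the oocyte members (Obox1, Obox2, Obox5, Obox7) and of the zygotic members (Obox3, Obox6), and the log2 ratio of the zygotic to the oocyte sum, in each library. The ratio is lowest in SPN (-2.16 to -1.34), between in EPN (-1.13 to -0.13) and highest in LPN (0.08 to 0.86), with no overlap.

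Obox5 supplied most of the oocyte sum, with 84.5% ± 3.85 for the SPN libraries, 75.8% ± 1.80 for EPN and 77.7% ± 1.81 for LPN (SD, n = 3). All SPN shares, from 80.5% to 88.2%, lay above the highest share in the other groups, 79.8% in LPN. Without Obox5 the SPN libraries averaged 613 ± 95.0 CPM for the oocyte sum, EPN 693 ± 142 and LPN 525 ± 212, with overlap between all groups.

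Divided by exon length (GENCODE M21, GRCm38), levels can be set side by side between genes. In SPN the order was Obox5 at 1657 ± 644 CPM per kb, Obox6 at 663 ± 310.0, Obox1 at 231 ± 40.8, Obox3 at 165 ± 121, Obox2 at 73.9 ± 4.89 and Obox7 at 32.7 ± 13.9 (SD, n = 3). Obox1 overlapped Obox3, and Obox3 overlapped Obox2, while the other neighbours did not overlap. In LPN the order was Obox6 at 1420.2 ± 244, Obox5 at 857 ± 321, Obox3 at 379 ± 31.9, Obox1 at 183 ± 88.2, Obox2 at 78.1 ± 31.5 and Obox7 at 30.4 ± 17.05. The ranges of Obox6 and Obox5 overlapped there, as did those of Obox2 and Obox7. Both genes of a pair come from the same libraries, and in each LPN library Obox6 lay above Obox5 and Obox2 above Obox7. In EPN Obox5 led at 1008 ± 117 with Obox6 at 768 ± 187 overlapping it, and Obox3 at 252 ± 51.8 and Obox1 at 236 ± 48.3 overlapped each other. All Obox rows together held 0.414% to 0.856% of a library's reads.

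Among the Obox3 pseudogenes, Obox3-ps1 was measured at 235, 97.4 and 54.7 CPM in SPN, 139, 145 and 189 in EPN, and 247, 312 and 229 in LPN. Obox3-ps4 was measured at 166, 51.4 and 37.1 CPM in SPN, 113, 115 and 139 in EPN, and 171, 172 and 158 in LPN. For both, SPN A lay within the LPN range and the LPN libraries lay above all EPN libraries. Both rose in LPN against SPN, by 1.26 (SE 0.35, limma, adjusted p = 0.0264) and 1.28 (SE 0.37, limma, adjusted p = 0.0300) on the log2 scale.

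Obox3-ps7 was measured at 22.3, 13.9 and 10.9 CPM in SPN, 30.3, 36.6 and 31.5 in EPN, and 19.5, 46.2 and 38.0 in LPN. Its EPN libraries all lay above SPN, while LPN A lay within the SPN range, and no contrast passed (limma, adjusted p = 0.344 for EPN and 0.105 for LPN against SPN). Without SPN A the LPN against SPN difference of Obox3-ps7 was 1.33 and passed (limma, adjusted p = 0.0334), and those of Obox3-ps1 and Obox3-ps4 were 1.82 and 1.91 (limma, adjusted p = 0.000442 and 0.000232). The calls of Obox3-ps1 and Obox3-ps4 did not hold without SPN B, SPN C, LPN A or LPN B (limma, adjusted p from 0.0617 to 0.234). Neither was called with edgeR or DESeq2. Obox3-ps1 stood at 16.0% to 26.3% of the CPM of Obox3 over the 9 libraries, and Obox3-ps4 at 12.3% to 18.4%.

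The Obox4 pseudogene rows were low, with their highest sums in 1 EPN and 1 LPN library. Their 21 rows summed to 19.1, 13.7 and 1.75 CPM in SPN, 92.8, 25.5 and 24.0 in EPN, and 5.21, 109 and 7.88 in LPN. EPN A and LPN B stood far above the others; 14 of the 21 rows had their highest CPM in LPN B and 4 in EPN A. These sums rest on 20 to 1284 reads a library. The highest single rows were Obox4-ps31, at 42.6 CPM in EPN A and 24.4 in LPN B, Obox4-ps29, at 21.97 and 12.1, and Obox4-ps33, at 26.8 CPM in LPN B. LPN B was also the shallowest library, where 3 reads equalled 0.394 CPM, and the part of depth in these rows was not tested. None of the 6 tested Obox4 rows was called in any contrast with limma, edgeR or DESeq2 over all 9 libraries. Without SPN A, Obox4-ps9 passed in limma for LPN against SPN. Obox4-ps27 and Obox4-ps33 had all EPN libraries above SPN, which with Obox5 and Obox3-ps7 made 4 of 15 rows without overlap in EPN against SPN, beside 14.6% of all tested genes.

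**Figure D4:**
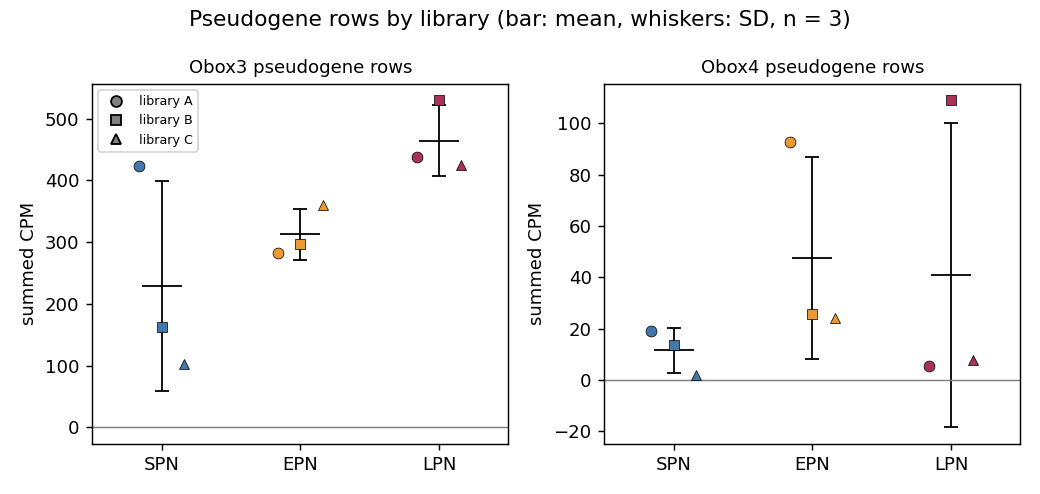
Summed CPM of the 3 Obox3 pseudogene rows and of the 21 Obox4 pseudogene rows in each library, by group, with the mean (bar) and SD (whiskers) of 3 libraries. The Obox3 sum is 425 to 530.2 CPM in LPN with SPN A (423 CPM) just below, and the Obox4 sum is highest in LPN B (109 CPM) and EPN A (92.8 CPM).

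How far reads can tell the copies apart was read from their transcripts (GENCODE M21). Of the 150-base windows of Obox1 and Obox2, 31.4% and 32.7% were found letter for letter in another Obox transcript, so the split between this pair is uncertain. Obox5, Obox6 and Obox7 shared no such window, and Obox3 shared 7.25%. Obox3-ps4 shared 26.1% and Obox3-ps1 3.55%, while 6 Obox4 pseudogenes shared all of theirs. Whether reads with several matches were counted is not given in the sources used here. No pair of Obox rows had identical values in every library.

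Without SPN A the LPN against SPN differences of Obox3, at 2.03, and Obox6, at 1.54, were larger (limma, adjusted p = 0.000113 and 0.000703). For EPN against SPN, leaving it out gave 3 calls, Obox3 at 1.42, Obox3-ps4 at 1.46 and Obox3-ps1 at 1.09 (limma, adjusted p = 0.00816, 0.00781 and 0.0436). Over all tested genes the calls without SPN A were 451 for EPN against SPN, beside 16 with every library. For LPN against SPN they were 2733, beside 1309. Without SPN C, in contrast, 0 Obox rows passed for LPN against SPN in limma, and Obox3 and Obox6 had log2 differences of 0.93 and 0.87 (limma, adjusted p = 0.145 and 0.159). With SPN B or LPN A left out Obox3 passed and Obox6 did not, and without LPN B neither passed (1.43 and 1.13; limma, adjusted p = 0.0589 and 0.0838).

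**Figure D5:**
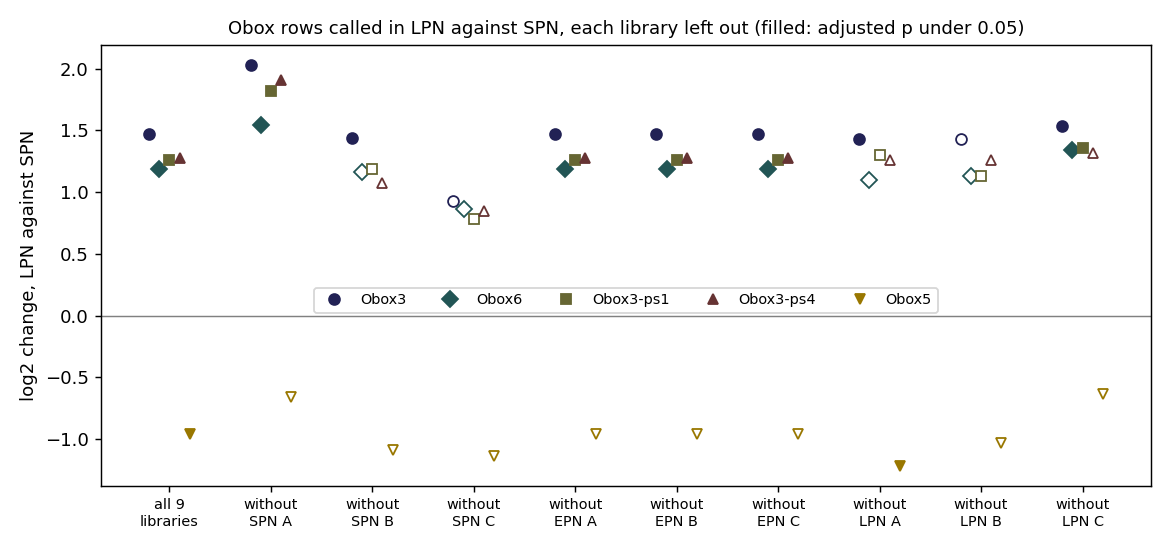
Log2 differences of LPN from SPN for Obox3, Obox6, Obox5 and the called Obox3 pseudogenes with all libraries and with each library left out in turn, filled where the limma adjusted p is under 0.05. Obox3 ranges from 0.93 without SPN C to 2.03 without SPN A, and the sign of each gene holds throughout.

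Genes of the same setting were read from lists of known factors. The lists were chosen with earlier results of these data known, so their counts are descriptions. Of 69 listed 2-cell genes, transcripts of the first wave of embryonic transcription, 45 were in the table and tested. Among these 45, 16 rose and 0 fell in LPN against SPN, beside 3.26% of all tested genes higher and 5.54% lower. Their median was 0.97, beside -0.17 over all genes. Eif1ad7 and Eif1ad3, copies of a family related to translation initiation factors, rose by 1.76 and 1.64 on the log2 scale (limma, adjusted p = 0.000985 and 0.00191), and Usp17lb, a deubiquitinase gene, by 1.68 (limma, adjusted p = 0.00333). The others include Zfp352, a retrotransposon-derived zinc finger gene, at 1.13 (limma, adjusted p = 0.0152). Zscan4d did not pass, at 1.02 (limma, adjusted p = 0.0593). Of 54 tested maternal oocyte genes, 2 rose and 17 fell, with a median of -0.78, beside the same 3.26% higher and 5.54% lower over all tested genes. Bcl2l10, an oocyte apoptosis regulator, fell by 1.63 on the log2 scale (limma, adjusted p = 0.00145), and Gdf9, an oocyte growth factor, by 1.34 (limma, adjusted p = 0.00960). Nlrp4f and Wee2, an oocyte kinase gene, fell by 1.46 and 1.45 (limma, adjusted p = 0.00333 for both). Zp3, a zona pellucida protein gene, rose by 1.16 (limma, adjusted p = 0.0166).

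Of 13 tested oocyte transcription factors, 3 fell in LPN against SPN and 0 rose, with a median of -0.64, beside 5.54% lower and 3.26% higher over all tested genes. Foxo3, which restrains follicle activation, fell by 1.58 (limma, adjusted p = 0.0124) and Sebox, an oocyte homeobox gene, by 1.37 (limma, adjusted p = 0.0166), while Taf7l fell by 2.23 (limma, adjusted p = 0.0346). Nobox, the homeobox factor of the growing oocyte, had -0.64 (limma, adjusted p = 0.388). Of 32 tested genome activation factors 3 rose and 5 fell, beside 3.26% higher and 5.54% lower over all tested genes. Their median of -0.15 was close to that of all genes, -0.17. Hsf1, the heat shock factor stored in the egg, fell by 1.40 (limma, adjusted p = 0.00921), and Zfp281 rose by 1.23 (limma, adjusted p = 0.0109). Dppa2, a chromatin factor of early embryos, rose by 1.003 on the log2 scale (limma, adjusted p = 0.0362), and its partner Dppa4 had 0.57 (limma, adjusted p = 0.170). Nfya had 0.83 (limma, adjusted p = 0.125) and Nr5a2 -0.03 (limma, adjusted p = 0.955). Dux and Duxf3 had the same values in every library, at most 3.46 CPM, and were not tested.

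Among the other 31 tested paired-like and related homeobox genes 1 rose and 3 fell in LPN against SPN, beside 3.26% higher and 5.54% lower over all tested genes. Their median was 0.19, beside -0.17 over all genes. The share that rose was near the background, and the 3 that fell are few genes. Sebox, counted above with the oocyte transcription factors, is counted here as well. Gbx2, a homeobox gene, fell by 2.67 (limma, adjusted p = 0.00710). Duxbl1, a double homeobox gene, was measured at 378, 190 and 131 CPM in SPN, 262, 355 and 514 in EPN, and 527, 445 and 573 in LPN. It rose by 1.27 on the log2 scale (limma, adjusted p = 0.0140), and only LPN B lay below an EPN value. Crxos, named for the strand opposite Crx beside the cluster, was measured at 819, 1647 and 1467 CPM in SPN, 697, 1074 and 644 in EPN, and 1651, 1767 and 1185 in LPN. Its LPN libraries overlapped those of SPN and all lay above those of EPN, and neither contrast passed (limma, adjusted p = 0.584 for LPN against SPN and 0.0793 for LPN against EPN). The library method does not mark strand, so reads of Crxos cannot be told from those of an overlapping gene on the other strand.

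In EPN against SPN, Tdpoz8 was the one called gene over these 5 lists, at 1.82 (limma, adjusted p = 0.0266). In LPN against EPN, where 1.53% of all tested genes were called in either direction, 6 of the 54 maternal oocyte genes fell, among them H1f8, the oocyte linker histone, by 1.59, Zbed3 by 1.53 and Bcl2l10 by 1.11 (limma, adjusted p = 0.0237, 0.0243 and 0.0389). AF067061, a 2-cell gene, rose there by 1.66 (limma, adjusted p = 0.0222).

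The genes most like a member in pattern were ranked by the root mean square difference of log2(CPM + 1), each gene centred on its mean over the 9 libraries. For Obox5 they were Sfn (0.15), Tcl1b2 (0.21) and Lrrc40 (0.25), against a spread of Obox5 itself of 0.55. For Obox3 they were Trim43b (0.17), Cbll1 (0.17) and Stxbp3 (0.18), against a spread of 0.81, and for Obox6 they were Gabpb1 (0.13), Dppa2 (0.13) and Tcp1 (0.18), against 0.63. Among the Obox rows the nearest to Obox3 were Obox3-ps1 and Obox3-ps4, at 0.21 each, and then Obox6 at 0.33. Obox1 was nearest to Pmf1 (0.13) and Tcl1b1 (0.15). These distances share the libraries and their depth and are descriptions.

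Markers of other cell types were read from 3 lists. Of 13 listed cumulus and granulosa genes 7 are in the table, with Foxl2 at 0 in every library. They summed to 6.56 to 17.3 CPM in SPN, 13.1 to 28.9 in EPN and 10.9 to 19.1 in LPN. The highest single value was that of Tnfaip6, 23.7 CPM in EPN A. Its EPN libraries all lay above SPN, at a log2 difference of 1.75 that did not pass (limma, adjusted p = 0.270). Of the 4 tested cumulus and granulosa genes, 2 had a positive difference in EPN against SPN. Of 10 sperm markers 6 are in the table, with sums of 25.4 to 45.9 CPM in SPN, 12.2 to 32.6 in EPN and 34.7 to 65.0 in LPN, mostly Ldhc. Of 10 blood markers 3 are in the table, with sums of 42.8 to 100.4 CPM in SPN, 33.9 to 85.0 in EPN and 13.3 to 30.8 in LPN, mostly Hba-a1. Hba-a1, an alpha globin gene, fell by 1.58 on the log2 scale in LPN against SPN (limma, adjusted p = 0.0247). The other 2 blood markers were not called there, Hba-a2 had -0.16 (limma, adjusted p = 0.893), and 1 of the 3 had a positive difference. The part of these cells in the Obox differences was not tested.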

How the data were processed

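The authors deposited CPM for 19359 genes in 9 libraries. The tools named in the submitters' processing notes are HISAT2 2.2.1, Trim Galore 0.6.7, edgeR and R 3.3.3, and the build is GRCm39; the read counter and the gene annotation are not given in the sources used here. Per the labels' protocols, RNA was amplified with a Smart-seq2 kit, which does not mark strand. All deposited CPM values were whole multiples of 1 read within 0.01 reads, which gave back whole reads and totals of 7611781 to 15559218 reads a library, of which 3.66% to 5.68% lay outside the table and were not analysed here. A count of 0 allows up to 3 reads, or 0.193 to 0.394 CPM; such limits cover counting error only.

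Genes that reached 1 CPM in 3 or more libraries were fitted as log2(CPM + 1) in 1 limma-trend model (limma 3.58.1, R 4.3.3) of 3 groups of 3 libraries, with no covariates. Tests were two-sided, p-values were adjusted by Benjamini-Hochberg over all 14876 tested genes, and adjusted p-values under 0.05 are called. A fold change on this scale understates the change of low genes. SDs are over 3 libraries and SEs are those of the limma contrasts. The pipeline was tested on simulated data.

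The members, classes and gene lists were chosen with earlier results of these data known. Named genes were all Obox genes, up to 3 called members of each list in each contrast by smallest adjusted p, 12 further genes of genome activation and of the oocyte, and the 3 genes nearest in pattern among those with a mean of at least 5 CPM. A gene that this rule names is not reported here. Symbols were used as deposited. Sequences came from RefSeq (GRCm38.p6) and transcripts from GENCODE M21 (GRCm38), both of an older assembly than the authors', so they are matched by symbol; 5 of the 6 Obox genes had a start region entry. Alternatives were edgeR 4.0.16 and DESeq2 1.42.0 on the recovered reads, other pseudocounts, filters and scalings, a fit of 6 libraries, a replicate block, and each library left out in turn.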

Additional observations from a re-analysis of the deposited data

How the results depend on the processing

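Depth sets no limit on the 6 Obox genes, whose CPM lies far above that of 3 reads, and limits the Obox4 rows. For LPN against SPN, 5 Obox rows passed, and the count was 0 without the filter on low values, 0 with edgeR, 3 with DESeq2, 2 with the 6 libraries compared, 4 to 5 under the other settings of scaling, pseudocount and filter, and 0 to 6 with each library left out. The count was 0 for EPN against SPN, with 0 to 3 when a library was left out, and 0 for LPN against EPN, with 1 (Obox6) in the fit of 6 libraries and 0 to 1 when a library was left out; the other settings gave 0. Obox3 was called for LPN against SPN in 15 of 19 alternatives, Obox6 in 13, Obox3-ps1 in 11, Obox3-ps4 in 10 and Obox5 in 4, and none of them changed sign. Differences near 0 turned over. For LPN against SPN, Obox2 had 0.17 with median-of-ratios scaling, 0.011 with quantile normalization, 0.30 with edgeR and 0.30 with DESeq2, and Obox7 had 0.16 with edgeR and 0.15 with DESeq2. For LPN against EPN, Obox3-ps7 had 0.0036 with a pseudocount of 5 CPM, 0.12 with median-of-ratios scaling, 0.11 with quantile normalization, 0.19 with edgeR and 0.21 with DESeq2. With each library left out, the ranges were -0.12 to 0.16 for Obox1 and -0.034 to 0.64 for Obox6 in EPN against SPN, -0.27 to 0.36 for Obox2 and -0.60 to 0.34 for Obox7 in LPN against SPN, and -0.20 to 0.75 for Obox7, -0.25 to 0.35 for Obox3-ps7 and -0.56 to 0.021 for Obox5 in LPN against EPN. Over the whole table the calls for EPN against SPN were 16, and 4 with a pseudocount of 0.1, 0 without the filter, 3 with median-of-ratios scaling, 0 with edgeR, 117 with DESeq2, 0 with 6 libraries and 0 to 451 with each library left out. For LPN against SPN they were 1309, and 494 without the filter, 471 with edgeR, 659 with 6 libraries and 96 to 2733 with each library left out; quantile normalization gave 652 higher and 654 lower. For LPN against EPN they were 228, and 62 with a pseudocount of 0.1, 0 without the filter, 395 with a mean of at least 5 CPM, 21 with edgeR, 925 with DESeq2, 464 with 6 libraries and 4 to 762 with each library left out; the split of 103 higher and 125 lower became 127 and 52 with median-of-ratios scaling. Libraries of the same letter had correlations of -0.02 to 0.09 between their deviations from the group means over genes, and not every library correlated best with its own letter, so the letters were not taken as pairs. The replicate block gave 5 called Obox rows for LPN against SPN and 0 for both other contrasts, with 25, 1644 and 480 calls over the whole table for EPN against SPN, LPN against SPN and LPN against EPN. Rows summed to 1 gene per class were given as values and not run as a test. The cause of these differences was not tested.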

Other observations

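The 6 Zscan4 genes, which mark a burst of 2-cell transcription, were set beside the Obox4 pseudogene rows after their values were seen. Their summed level was 1123, 676 and 350 CPM in SPN A, B and C, 1037, 1859 and 781 in EPN, and 821, 1869 and 1257 in LPN. LPN B was the highest LPN library for both, whereas EPN A, the highest EPN library for the Obox4 rows, was not so for Zscan4, where it was EPN B. By the same distance as above, Zscan4f was the nearest gene to Obox4-ps9, at 0.44 against a spread of 1.03, and Usp44 was nearest to Obox4-ps27, Obox4-ps29 and Obox4-ps31. Usp44, a deubiquitinase gene, was measured at 2.08, 5.14 and 0.262 CPM in SPN, 17.3, 4.22 and 3.97 in EPN, and 0.321, 11.3 and 3.18 in LPN, with its highest values in EPN A and LPN B. These are descriptions of 9 libraries at low counts and carry no test.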
